A study of Mus musculus with 55 samples.

Results

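The 10 immediate early genes were followed mouse by mouse in RNA from the dorsal part of the mouse hippocampus. They were taken by name, as 10 of the 16168 genes with enough reads to test, and comprised the AP-1 genes Fos, Fosb and Junb, the zinc finger genes Egr1, Egr2 and Egr4, the transcription factor genes Npas4 and Nr4a1, the synaptic gene Arc, and Ier2. The study compared wild-type (WT) mice with constitutive Cnih3 knock-out (KO) mice on a C57BL/6J background. The WT mice were a mix of offspring of B6 by B6 parents and of Cnih3 breeding. B6 by B6 parents were recorded for 3 of 4 WT metestrus, 2 of 6 diestrus, 4 of 5 proestrus and 6 of 7 estrus mice and 1 of 5 WT males. No KO mouse had such parents. Cnih3 encodes an auxiliary protein of AMPA-type glutamate receptors, and a single exon of it was deleted in the knock-out. One mouse gave 1 library, 55 in all. There were 27 WT mice: 4 metestrus, 6 diestrus, 5 proestrus and 7 estrus females, and 5 males. There were 28 KO mice: 5 metestrus, 6 diestrus, 4 proestrus and 6 estrus females, and 7 males. Ages ran from 10.86 to 23.71 weeks, and 17 of the 55 mice were under 14 weeks. Stage was read from vaginal cytology, and each female was killed at 1 stage, so no mouse was followed through a cycle. None of the labels describes a stimulus given to provoke neuronal activity. The females were handled for vaginal lavage on consecutive days before tissue was taken, and the paper describes no such handling of males. Differences between females and males cannot be told apart from that handling.

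Immediate early genes are transcribed within minutes of strong synaptic input, from factors already present in the nucleus, and their mRNAs decay quickly. In hippocampal neurons, calcium entering through glutamate receptors and voltage-gated channels activates kinases that phosphorylate CREB at cAMP response elements and, with serum response factor, the ternary complex factors at CArG boxes. Most of these genes encode transcription factors that switch on later genes, while Arc protein acts at synapses, where it promotes removal of AMPA receptors from the surface. Their mRNA levels in unstimulated tissue are read as traces of recent activity, handling or arousal.

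Stretches of promoter from the genes on which the results turn are given here because they hold the activity-responsive letters named above. Windows of the 250 bases before the start came from RefSeq (GRCm38.p6) for 7 of the 10 genes, all but Egr1, Arc and Ier2. Capitals mark TGACG, the core of the cAMP response element, read on either strand (CGTCA on the other), and in Egr2 also a CArG box, searched for by name in both orientations. Egr2 is shown for its CArG box. Fos, Junb and Nr4a1 were chosen after their values were seen. The windows were chr12:85473640-85473889 on the plus strand for Fos, chr8:84978749-84978998 on the minus strand for Junb, chr15:101266596-101266845 on the plus strand for Nr4a1 and chr10:67537619-67537868 on the plus strand for Egr2. Those of Nr4a1 and Egr2 lay inside the annotated spans of their genes, and overlap with exons of other transcripts was not examined.
Fos: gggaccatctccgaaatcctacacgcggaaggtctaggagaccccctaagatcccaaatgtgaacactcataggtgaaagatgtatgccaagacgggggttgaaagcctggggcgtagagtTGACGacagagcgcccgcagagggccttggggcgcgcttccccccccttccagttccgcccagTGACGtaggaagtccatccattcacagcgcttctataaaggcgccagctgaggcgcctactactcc
Junb: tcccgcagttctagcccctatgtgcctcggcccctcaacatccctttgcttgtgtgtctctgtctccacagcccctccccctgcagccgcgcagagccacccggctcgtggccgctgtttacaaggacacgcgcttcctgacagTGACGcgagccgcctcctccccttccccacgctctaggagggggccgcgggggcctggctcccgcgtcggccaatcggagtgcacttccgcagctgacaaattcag
Nr4a1: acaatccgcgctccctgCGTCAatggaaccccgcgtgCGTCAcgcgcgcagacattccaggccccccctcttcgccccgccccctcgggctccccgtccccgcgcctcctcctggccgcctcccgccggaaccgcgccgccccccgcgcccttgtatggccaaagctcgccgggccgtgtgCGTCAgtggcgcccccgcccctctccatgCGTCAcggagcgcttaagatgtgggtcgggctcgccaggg
Egr2: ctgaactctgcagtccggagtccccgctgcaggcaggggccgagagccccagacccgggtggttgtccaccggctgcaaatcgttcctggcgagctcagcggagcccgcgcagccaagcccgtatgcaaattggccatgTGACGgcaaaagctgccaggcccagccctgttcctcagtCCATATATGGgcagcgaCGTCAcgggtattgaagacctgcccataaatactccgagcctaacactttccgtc

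The core was present in at least 1 window of each of the 7 genes. Of all 32851 windows 17.8% held it, a share per window and not per gene. Egr2 had several windows, and those starting at 67535249 and 67537316 held 0 cores. The Egr2 window shown was among those with the most matches. In the windows shown, the core lay 129 and 66 bases before the start in Fos and 106 in Junb. It lay at 233, 213, 69 and 40 in Nr4a1 and at 111 and 55 in Egr2, with the CArG box of Egr2 at 72. A CArG box was found for 1 of the 7 genes, Egr2, and in 1.47% of all windows. The full element TGACGTCA, which contains the core, was found for 0 of the 7 genes and in 1.55% of all windows. The EGR site GCGNGGGCG was found for Fosb and Nr4a1 and in 4.7% of all windows. These matches describe letters in a window and not binding. Bases farther upstream were not searched, so a gene without a match here may still have the element there.

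All 10 genes had reads in every mouse and passed the filter on low counts. Per kilobase of exon, the median over 55 mice was highest for Arc (60.2 CPM per kb), Egr1 (34.1) and Nr4a1 (29.1), and lowest for Egr2 (0.918), Fosb (1.13) and Npas4 (1.39). CPM stands for counts divided by the library size and scaled to a common total after TMM scaling of the library size. Within a gene, the highest mouse stood above the lowest by 2.12-fold for Egr1 (99.2 to 211 CPM), 4.86-fold for Arc (74.7 to 363 CPM) and 16.5-fold for Fos (4.93 to 81.2 CPM). The widest range was that of Fosb, 19.8-fold (3.88 to 76.6 CPM). The smallest single count was 22 reads for Egr2 and the largest 20946 reads for Arc. The genes were more variable between mice of 1 group than most: the within-group SD of log2 CPM had a median of 0.6 over the 10 genes and 0.27 over all genes, and 7 of the 10 were among the 10% most variable genes. Egr1 was the exception at 0.25, and Ier2 was the most variable at 0.96. Differences between groups took a median of 23.1% of the variance for the 10 genes and 22.3% for all genes.

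**Figure D1:**
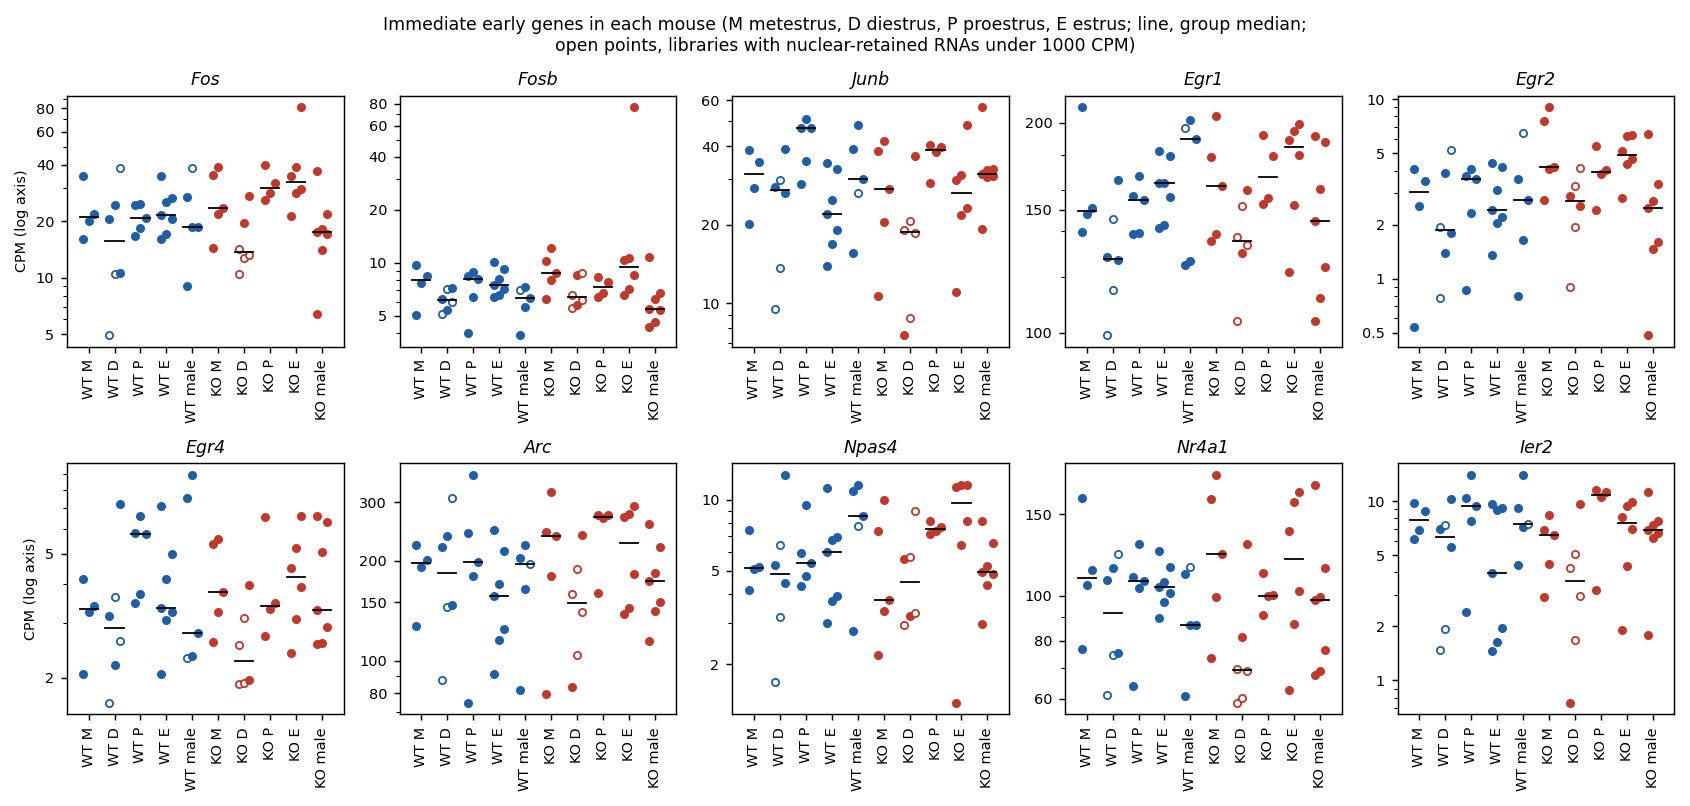
CPM of each immediate early gene in each mouse (log axis; blue, WT; red, KO; 1 point per mouse; line, group median), with open points for the 8 libraries whose nuclear-retained RNAs summed to under 1000 CPM. Diestrus mice lie low in most panels, and groups overlap in most; a single KO estrus mouse stands at 76.6 CPM for Fosb.

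With the groups put in order of their mean log2 CPM, none of the 9 neighbouring pairs of any gene was separated by more than the larger SD of the pair. Within KO females, diestrus had the lowest mean of the 4 stages for all 10 genes. Within WT females it had the lowest for 8 of 10, with Arc and Ier2 lowest in estrus. For Fos, the protein partner of Jun in the AP-1 dimer, the group means of log2 CPM in WT were 3.89 ± 1.06 in diestrus (SD, n = 6), 4.37 ± 0.25 in proestrus (n = 5), 4.48 ± 0.47 in metestrus (n = 4), 4.49 ± 0.39 in estrus (n = 7) and 4.32 ± 0.78 in males (n = 5). In KO they were 3.94 ± 0.49 in diestrus (n = 6), 4.65 ± 0.58 in metestrus (n = 5), 4.96 ± 0.27 in proestrus (n = 4), 5.14 ± 0.66 in estrus (n = 6) and 4.08 ± 0.76 in males (n = 7). The means of the KO groups thus spanned a wider range of Fos than those of the WT groups; the interaction of genotype and stage was tested separately.

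Several libraries stood apart. Library totals were 25881295 to 63547098 reads (median 53384170). Markers of dentate granule cells summed to 138 to 260 CPM and those of CA1 pyramidal cells to 252 to 430 CPM over all mice, so the labelled tissue's cells were represented in each library. Xist and Ddx3y matched the labelled sex in all 55 mice. The gene count of Cnih3 ran from 21.6 to 62.5 CPM in WT and from 21.6 to 47.8 CPM in KO, and it checks nothing, because it adds the exons that were left in place. In 8 libraries the summed level of 7 nuclear-retained RNAs (Malat1, Meg3, Neat1, Snhg11, Miat, Kcnq1ot1 and Rian) was 585 to 989 CPM, against 1530 to 4290 CPM in the other 47. These 8 were all 7 diestrus mice under 14 weeks (3 WT and 4 KO) and 1 WT male, while 10 mice of other groups under 14 weeks were at the higher level. RNA was taken from the supernatant of a detergent lysate after centrifugation. KO estrus mouse 12_1 also stood apart: it had the highest Fos (81.2 CPM) and Fosb (76.6 CPM) of all mice and the lowest Npas4 (1.37 CPM). In that mouse the summed other rapid response genes reached 1140 CPM against at most 731 CPM in the rest of its group, and the astrocyte markers 2460 CPM against 703 to 937.

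Within KO females, all 10 immediate early genes were lower in diestrus than in estrus. By limma with quality weights, each passed an FDR of 0.05 adjusted over all 16168 genes, with 19.3% of all genes called lower in that comparison and 46.2% called in at least 1 of the 6 comparisons of KO stages. The median log2 fold change was -0.83 over the 10 genes and -0.015 over all genes. Against proestrus 5 of the 10 were lower in diestrus (19.4% of all genes called lower; median -0.66 against -0.034), and against metestrus 3 of the 10 were (8.2% of all genes higher in metestrus; median of metestrus minus diestrus 0.8 against 0.01). No gene of the 10 was called between KO metestrus and KO proestrus (4.37% of all genes called in either direction) or between KO proestrus and KO estrus (0.507%). Between metestrus and estrus 0 of all genes were called by limma in KO and 0 in WT, with 1367 and 705 genes at an unadjusted p under 0.05. Bulk RNA cannot tell fewer cells of a type from less RNA per cell.

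Among the AP-1 genes, Fos (chr12:85473890-85477273, plus strand, GRCm38) was at 10.5 CPM in the lowest, 13.7 CPM in the median and 27.1 CPM in the highest KO diestrus mouse. In KO estrus it was at 21.2, 32.2 and 81.2 CPM, and in KO proestrus at 25.8, 28.1, 32.1 and 39.7 CPM. In diestrus, 5 of the 6 mice were below every KO estrus and every KO proestrus mouse, and the sixth overlapped both groups. Fos was lower in diestrus than in estrus by -1.31 ± 0.31 on the log2 scale (SE; 95% CI -1.93 to -0.69; FDR = 0.00136) and lower than in proestrus by -1.11 ± 0.33 (FDR = 0.00642). In KO metestrus Fos was at 14.3, 21.9, 23.5, 35.1 and 38.7 CPM, and the difference from diestrus was 0.98 ± 0.32 (FDR = 0.036). Metestrus overlapped diestrus in its lower 3 mice.

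Junb (chr8:84974484-84978718, minus strand), which encodes the Jun partner induced with Fos, was at 7.53, 18.8 and 36.6 CPM (lowest, median, highest) in KO diestrus. It was at 28.9, 37.9, 39.7 and 40.5 CPM in KO proestrus and at 11, 26.5 and 48.2 CPM in KO estrus. Only 1 diestrus mouse reached the proestrus range, while diestrus and estrus overlapped widely. The log2 difference of diestrus was -1.26 ± 0.29 from proestrus (FDR = 0.000758) and -0.76 ± 0.29 from estrus (FDR = 0.0396). Fosb (chr7:19302696-19310051, minus strand), which encodes a Fos relative with a long-lived splice form, was at 5.55, 6.36 and 8.76 CPM in KO diestrus and 6.59, 9.43 and 76.6 CPM in KO estrus. Its groups overlapped, and the difference of -0.56 ± 0.22 (FDR = 0.0482) became -0.36 (FDR = 0.0915) without mouse 12_1, which held the 76.6 CPM. Fos kept its call without that mouse (-1.21, FDR = 0.00265).

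Nr4a1 (chr15:101254269-101274795, plus strand) encodes an orphan nuclear receptor. It was at 58.8, 69.2 and 129 CPM in KO diestrus, with 4 of the 6 mice at 58.8 to 69.5 CPM. It was at 91, 99.8, 100.3 and 112 CPM in KO proestrus, at 62.6, 120 and 168 CPM in KO estrus, and at 73.7, 99.5, 123, 162 and 182 CPM in KO metestrus. Those 4 diestrus mice lay below every proestrus and metestrus mouse, and estrus mouse 12_1, at 62.6 CPM, lay among them. The log2 difference of diestrus from estrus was -0.9 ± 0.2 (FDR = 0.000625) and from proestrus -0.54 ± 0.21 (FDR = 0.0384; 0.04, of the opposite sign, with diestrus mice of 14 weeks or more only), and that of metestrus from diestrus was 0.91 ± 0.2 (FDR = 0.00216).

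Of the EGR zinc finger genes, Egr1 varied least, at 104, 135 and 160 CPM in KO diestrus and at 122, 184 and 199 CPM in KO estrus. The groups overlapped, and the difference was -0.45 ± 0.13 (FDR = 0.00994). Egr2 (chr10:67535475-67542188, plus strand) was at 0.893, 2.71 and 4.13 CPM in KO diestrus, 2.82, 4.88 and 6.3 CPM in KO estrus and 2.75, 4.09, 4.2, 7.53 and 9.03 CPM in KO metestrus. Its difference was -1.19 ± 0.43 from estrus (FDR = 0.0309), and metestrus exceeded diestrus by 1.24 ± 0.43 (FDR = 0.0497). With 1 mouse left out, the metestrus difference ran from 0.92 to 1.46 and its call was lost in 24 of 55 fits, with the largest FDR, 0.207, without KO diestrus mouse 532. Diestrus overlapped both groups. Egr4 (chr6:85511121-85513589, minus strand) was at 1.91, 2.26 and 3.98 CPM in KO diestrus and 2.4, 4.21 and 6.59 CPM in KO estrus, a difference of -0.78 ± 0.3 (FDR = 0.0435) between groups that overlapped.

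Arc (chr15:74669083-74672570, minus strand) was at 83.4, 150 and 239 CPM in KO diestrus, at 160.2, 269, 274 and 275 CPM in KO proestrus and at 138, 227 and 292 CPM in KO estrus. Proestrus mouse 14_2, at 160.2 CPM, sat within the diestrus range, and the other 3 proestrus mice sat above it. Arc was lower in diestrus by -0.83 ± 0.27 against proestrus (FDR = 0.0142) and by -0.66 ± 0.26 against estrus (FDR = 0.0448). Npas4 (chr19:4984355-4990316, minus strand), a factor gene that responds to calcium entry in neurons, was at 2.94, 4.47 and 9.01 CPM in KO diestrus and 1.37, 9.75 and 11.6 CPM in KO estrus. The low end of estrus was again mouse 12_1, and the difference was -0.88 ± 0.34 (FDR = 0.0467), or -1.04 (FDR = 0.0114) without that mouse. Ier2 (chr8:84661331-84662852, minus strand), whose product is a nuclear regulator of transcription, was at 0.748, 3.6 and 9.68 CPM in KO diestrus, 3.17, 10.5, 11.2 and 11.5 CPM in KO proestrus and 1.9, 7.54 and 9.83 CPM in KO estrus. Its log2 differences were -1.7 ± 0.43 from proestrus (FDR = 0.00164) and -1.13 ± 0.43 from estrus (FDR = 0.0394), with diestrus mice spread across both groups.

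The KO diestrus calls rested in part on the 4 KO diestrus mice with low nuclear-retained RNAs, to which limma gave quality weights of 1.61 to 1.74, against 0.433 and 0.509 for the other 2. In those 4 mice, all under 14 weeks, Fos was at 10.5, 12.8, 13.2 and 14.3 CPM and Nr4a1 at 58.8, 60.3, 68.8 and 69.5 CPM. In the 2 diestrus mice of 14 weeks or more Fos was at 19.5 and 27.1 CPM and Nr4a1 at 81.4 and 129 CPM. The 4 younger mice were thus the lower ones for both genes, whereas the lowest Junb (7.53 CPM), Ier2 (0.748 CPM) and Arc (83.4 CPM) in KO diestrus belonged to an older mouse. With diestrus mice of 14 weeks or more only, 0 of the 10 genes and 0% of all genes were called lower in KO diestrus than in KO estrus, the 10 differences were all negative, and their median was -0.62. Leaving out the 8 libraries with low nuclear-retained RNAs gave the same counts and median. It left the same KO diestrus and KO estrus mice in the fit, so it is no separate check. With age as a covariate 0 of the 10 were called (median -0.68) and 7.74% of all genes were called lower, and with diestrus mice under 14 weeks only, 5 of the 10 and 20.8% of all genes were. With the form of the mouse number (1 or 2 parts) as a covariate 0 of the 10 and 0% of all genes were called lower and 8 of the 10 were negative, with Junb at 0.13 and Ier2 at 0.04. The diestrus group held 5 of 6 mice with a 1-part number, and the estrus group 1 of 6.

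Count models gave fewer calls from the same mice. By edgeR's quasi-likelihood test 1 gene, Fosb, was lower in KO diestrus than in KO estrus (-1.54, FDR = 0.0452), and by DESeq2 also Fosb alone (-1.53, FDR = 0.0107), with 0.0495% and 0.699% of all genes called lower. Without mouse 12_1 Fosb was at -0.33 (FDR = 0.344) by edgeR and -0.31 (FDR = 0.357) by DESeq2, and 0 of the 10 genes were called by these tools between any KO stages. With all mice, the 10 differences were negative with both tools, with medians of -0.73 and -0.72. Without quality weights, limma called Fos in diestrus against estrus (-1.19, FDR = 0.05) and Junb in diestrus against proestrus (-1.19, FDR = 0.0335). Leaving out 1 mouse at a time, 3 to 10 genes were called lower in diestrus than in estrus, fewest without KO estrus mouse 9_1, and the median ran from -0.92 to -0.71. Against proestrus 3 to 5 were called, fewest without KO diestrus mouse 644, and in metestrus against diestrus 1 to 6 were called, fewest without KO metestrus mouse 6_1. Fos and Nr4a1 in diestrus against estrus, and Fos, Junb and Ier2 in diestrus against proestrus, were called whichever of the 55 mice was left out, while Fosb against estrus was lost in 39, Npas4 in 31 and Arc in 20 of the 55.

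**Figure D2:**
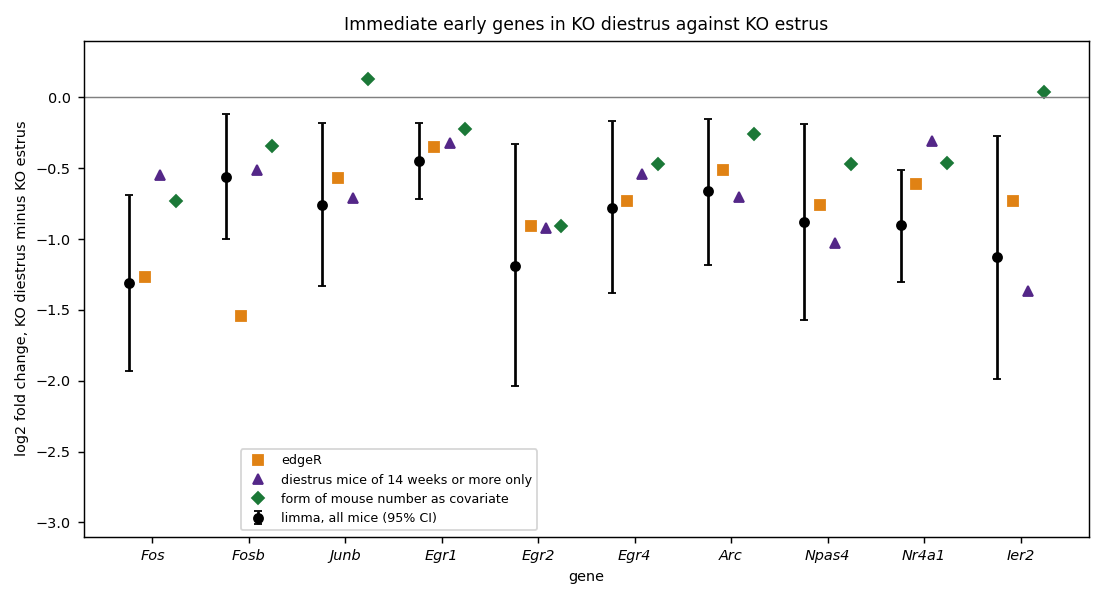
Log2 fold change of each gene in KO diestrus minus KO estrus: black points with 95% confidence intervals, limma over all mice; orange squares, edgeR; purple triangles, only diestrus mice of 14 weeks or more; green diamonds, form of the mouse number as a covariate. The limma intervals all lie below 0, and Junb (0.13) and Ier2 (0.04) lie above 0 with the number form as a covariate.

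Other RNAs differed alongside the immediate early genes in KO diestrus. The counts of genes called below stand against shares over all genes. These were 19.4% lower and 14.9% higher against proestrus, and 19.3% lower and 11.3% higher against estrus. The nuclear-retained RNAs summed to 725 to 4250 CPM (median 966) in KO diestrus, 3320 to 4140 CPM in KO proestrus and 2700 to 4030 CPM in KO estrus, and 5 of the 7 were lower in diestrus in both comparisons. The 9 mature oligodendrocyte markers summed to 3070 to 4900 CPM in diestrus, 4160 to 6480 CPM in proestrus and 3750 to 5860 CPM in estrus, with 7 and 6 of 9 lower. The 6 neuron markers summed to 8430 to 9990 CPM in diestrus, 7030 to 8090 CPM in proestrus and 7120 to 9250 CPM in estrus, with 4 higher and 1 lower against proestrus and 3 higher and 1 lower against estrus. The 5 microglia markers summed to 107 to 148 CPM in diestrus, 131 to 198 CPM in proestrus and 126 to 178 CPM in estrus, with 3 and 2 of 5 lower, and the 5 blood markers to 170 to 397, 295 to 518 and 162 to 335 CPM, with 4 and 0 of 5 lower. None of these 5 lists had a gene at 0 in all mice. Their part in the differences of the immediate early genes was not tested.

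**Figure D3:**
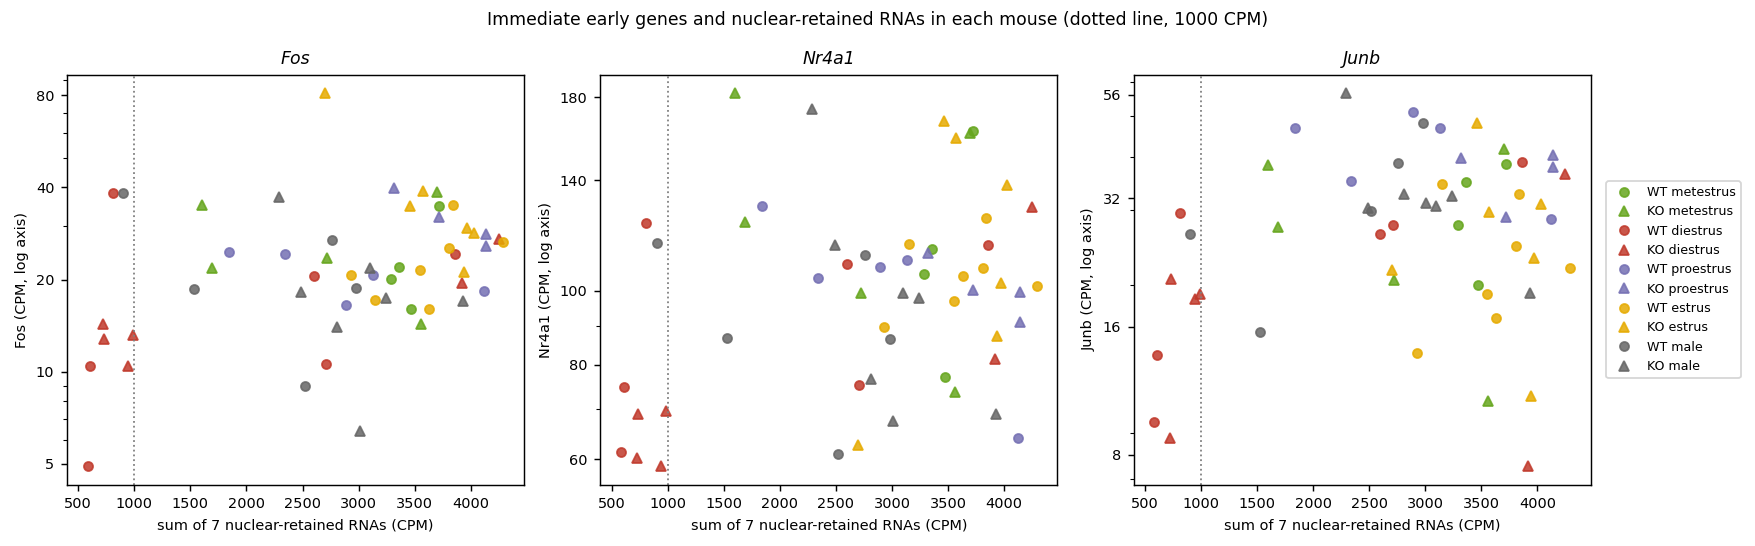
CPM of Fos, Nr4a1 and Junb (log axes) against the summed CPM of 7 nuclear-retained RNAs in each mouse, coloured by stage or sex, with circles for WT and triangles for KO. The 8 libraries left of the dotted line at 1000 CPM are 7 diestrus mice and 1 WT male; Fos in them runs from 4.93 to 38.3 CPM.

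Within WT females, Junb alone of the 10 genes was called between stages, where 30.6% of all genes were called in at least 1 of the 6 comparisons. It was at 28.7, 35.2, 46.9, 46.9 and 50.9 CPM in WT proestrus, at 9.53, 27.1 and 39.1 CPM in WT diestrus, and at 13.9, 22 and 34.5 CPM in WT estrus. All but the lowest proestrus mouse were above every estrus mouse, and 3 of the 5 were above every diestrus mouse. Junb was lower in diestrus than in proestrus by -1.17 ± 0.33 (FDR = 0.0197; 7% of all genes called lower) and higher in proestrus than in estrus by 0.89 ± 0.26 (FDR = 0.0301; 5.25% of all genes called higher). With 1 mouse left out, each call was lost in 4 of 55 fits. The call against diestrus was lost without WT diestrus mouse 548 (-0.68, FDR = 0.341), 549 (-0.7, FDR = 0.344) or 569 (-0.82, FDR = 0.268), or WT proestrus mouse 4_1 (-1.09, FDR = 0.0799). The call against estrus was lost without WT proestrus mouse 4_1 (FDR = 0.11) or 5_4 (FDR = 0.0538), or WT estrus mouse 1_1 (FDR = 0.0649) or 3_1 (FDR = 0.0647). With diestrus mice of 14 weeks or more only, 0 of the 10 and 0% of all genes were called between WT diestrus and WT proestrus.

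None of the 10 was called between WT diestrus and WT estrus, where 22.1% of all genes were. The nearest was Egr1 (-0.37 ± 0.14, FDR = 0.0551), at 99.2, 128 and 165 CPM in diestrus and 141, 164 and 182 CPM in estrus. Between WT metestrus and WT diestrus 0 of the 10 and 7.24% of all genes were called, and between WT metestrus and WT proestrus 0 and 0.767%. In WT diestrus Fos spanned 4.93, 15.6 and 38.3 CPM (lowest, median, highest), the whole width of the other 3 WT stages and more, since WT proestrus lay at 16.6 to 24.6 CPM and metestrus and estrus at 16 to 34.9 CPM. The median log2 difference of the 10 genes in WT was -0.56 for diestrus against proestrus (all genes -0.026), -0.34 for diestrus against estrus (-0.009) and 0.43 for metestrus against diestrus (0.015). WT diestrus mouse 548 was among the 5 lowest of the 55 mice for 9 of the 10 genes.

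Against males, 6 of the 10 genes were called in KO in at least 1 of the 5 comparisons, as were 33.7% of all genes, and 0 of the 10 were called in WT, where 0.0866% of all genes were. The mean of KO males lay between those of the KO stages for 8 of the 10 genes, and below them all for Fosb and Egr2. Fos was at 6.43, 17.4 and 37.1 CPM in KO males and was higher in KO estrus by 1.2 ± 0.29 (FDR = 0.00989). Egr2 was at 0.484, 2.48 and 6.39 CPM in KO males and higher in KO estrus by 1.54 ± 0.43 (FDR = 0.0214). Fosb was at 4.3, 5.43 and 10.7 CPM in KO males, higher in KO estrus by 0.67 ± 0.22 (FDR = 0.0428), and by 0.48 (FDR = 0.0628) without mouse 12_1. These 3 of 10 stood against 4.32% of all genes called higher in KO estrus, and the groups overlapped for each. Without KO male 2591 Fos fell to 0.76 (FDR = 0.109) and Egr2 to 0.8 (FDR = 0.246), the Fosb call was lost in 28 of 55 fits that left out 1 mouse, and without KO estrus mouse 12_3 no gene of the 10 was called.

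KO diestrus was lower than KO males for 3 of the 10 genes, with 18% of all genes called lower. Junb was at 19.2, 31.2 and 56.5 CPM in KO males, and diestrus was lower by -1.07 ± 0.26 (FDR = 0.00171). Ier2 was at 1.78, 6.94 and 11.3 CPM in KO males, and diestrus was lower by -1.21 ± 0.4 (FDR = 0.0176). Nr4a1 was at 67.4, 97.8 and 173 CPM, with diestrus lower by -0.48 ± 0.18 (FDR = 0.0423); this difference was 0.1 with diestrus mice of 14 weeks or more only. Over the mean of the 4 stages, KO females exceeded KO males for Fos by 0.74 ± 0.24 (FDR = 0.0473; 2.1% of all genes called higher), a call lost in 31 of the 55 fits that left out 1 mouse. Without KO male 2591, the lowest KO male for Fos, it was 0.3 (FDR = 0.587), and without mouse 12_1 it was 0.72 (FDR = 0.0535). With age as a covariate, 0 of the 10 were called between KO stages and KO males. In WT the smallest FDR of the 10 in any of the 5 comparisons with males was 0.234, and in the comparison with diestrus 0.068% of all genes were called. All KO males carried 1-part numbers.

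No immediate early gene was called by limma between KO and WT in any of the 5 conditions or over all mice. Of all genes, 3.4% were called over all mice, but far fewer within a condition. The shares were 0.315% (proestrus), 0.179% (estrus), 0.0247% (metestrus), 0.00619% (males) and 0% (diestrus). At these shares, 0 of 10 within a condition does not set the members apart from other genes. Over those 6 comparisons the smallest FDR by limma was 0.285, and 5 of 60 tests had an unadjusted p under 0.05. Of these, 4 were in estrus, where 1896 of all 16168 genes had such a p. They were Egr2 at 1.03 ± 0.39 (FDR = 0.285), Npas4 at 0.72 ± 0.32 (FDR = 0.364), Fos at 0.58 ± 0.27 (FDR = 0.398) and Arc at 0.56 ± 0.25 (FDR = 0.358). In estrus all 10 genes had positive KO minus WT values, with a median of 0.46 against 0.01 for all genes, and none passed. Parental breeding went largely with genotype in metestrus, proestrus and estrus, and its part there was not tested. By DESeq2 Fosb in estrus passed (1.35, FDR = 0.0373), and by edgeR it did not (FDR = 0.0808). The share of all genes passing there with these tools is not given. Without mouse 12_1, at 76.6 CPM, the Fosb difference was 0.13 (FDR = 0.999) by DESeq2 and 0.14 (FDR = 0.988) by edgeR. In proestrus Fos was at 25.8 to 39.7 CPM in KO and at 16.6, 18.3, 20.8, 24.3 and 24.6 CPM in WT, without overlap, as for 0.55% of all genes. The log2 difference by limma was 0.47 (FDR = 0.554). Fos was the only member whose groups did not overlap in that comparison.

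The stage differences were not shown to differ between genotypes. The interaction of genotype with diestrus against estrus was negative for all 10 genes, with a median of -0.52 against -0.011 for all genes, and each 95% interval included 0. For Nr4a1 it was -0.56 ± 0.29 (interval -1.14 to 0.01) and for Arc -0.73 ± 0.38 (interval -1.48 to 0.02). Over 10 interaction contrasts 0 of the 10 genes passed by limma, the smallest FDR was 0.305, 2 of the tests had an unadjusted p under 0.05, and 0 of all genes passed.

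Genes that act with or after the immediate early genes were counted from lists chosen with earlier results of these data known. Of 24 other rapid response genes tested, 8 were lower in KO diestrus than in KO estrus and 10 lower than in KO proestrus, where 19.3% and 19.4% of all genes were called lower, with medians of -0.37 and -0.43, and none were higher. The strongest were Dusp1, a phosphatase of MAP kinases (-1.19 ± 0.2 against proestrus, FDR = 1.26e-05), Tiparp, a poly-ADP-ribose polymerase family gene (-0.7 ± 0.13 against estrus, FDR = 0.000104), Jund of the AP-1 family (-0.72 ± 0.15 against proestrus, FDR = 0.000191) and Klf2, a zinc finger factor gene (-1.3 ± 0.3 against proestrus, FDR = 0.000728). Of 13 delayed response genes, 9 were lower and 1 higher in KO diestrus than in KO estrus (median -0.47), and 5 lower and 3 higher than in KO proestrus (median -0.23). Among them were the secretory granule genes Vgf (-0.92 ± 0.16 against proestrus, FDR = 2.7e-05) and Scg2 (-0.68 ± 0.14 against proestrus, FDR = 0.000206), the MAP kinase phosphatase gene Dusp5 (-0.91 ± 0.16 against estrus, FDR = 3.96e-05) and the synaptic pentraxin gene Nptx2 (-0.81 ± 0.18 against proestrus, FDR = 0.000329). The prohormone convertase gene Pcsk1 was higher in KO than in WT over all mice (0.39 ± 0.11, FDR = 0.0331). With diestrus mice of 14 weeks or more only, 0 of the rapid and 0 of the delayed response genes were called in these 3 comparisons. The median of diestrus against estrus was then -0.21 for the rapid and -0.09 for the delayed genes. Leaving out the libraries low in nuclear-retained RNAs gave the same counts and medians, but that subset differed only by 1 WT male. Without mouse 12_1 the rapid counts were again 8 and 10, and 7 delayed genes were lower and 2 higher in diestrus than in estrus.

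Genes for upstream signalling were called in both directions, in shares near those of all genes. Of 14 tested, 3 were higher and 2 lower in KO diestrus than in KO proestrus (median 0.11), where 14.9% of all genes were called higher and 19.4% lower. In KO diestrus against KO estrus 1 was higher and 2 lower (median -0.02), where 11.3% of all genes were called higher and 19.3% lower. With diestrus mice of 14 weeks or more only, 0 of the 14 were called in either comparison. Crebbp, the CREB-binding coactivator (0.32 ± 0.06, FDR = 0.000134), the calcium-dependent kinase gene Camk4 (0.4 ± 0.08, FDR = 0.000203) and the neuronal factor gene Mef2c (0.24 ± 0.07, FDR = 0.00472) were higher in diestrus than in proestrus. Elk4, a ternary complex factor gene, was lower in diestrus than in estrus (-0.38 ± 0.11, FDR = 0.00809).

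Across mice, the immediate early genes varied together. Over the 55 mice, with group means removed from log2 CPM, the 45 pairs of genes had a median Pearson r of 0.456 (jackknife SE over mice 0.1) and a median Spearman rho of 0.479. The median over all 130694028 pairs of tested genes was -0.00195, and 8.3% of those pairs exceeded the members' median. Of the 45 pairs 44 were positive and 37 passed a two-sided permutation test within groups (100000 permutations, Benjamini-Hochberg adjusted over the 45 pairs); by rho 42 passed. For 10 pairs the unadjusted p was 1e-05, the smallest these permutations can give. The correlation was highest for Junb with Ier2, at r = 0.867 (rho = 0.88, and r = 0.85 without the 2 mice farthest from the median of Junb). Arc with Nr4a1 and Arc with Ier2 followed at 0.79, Junb with Arc at 0.78, and Fos with Egr2 at 0.74. Egr1 had r = 0.71 with both Egr2 and Nr4a1.

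Fosb was the gene least tied to the others, with r = 0.30 to the mean of the other 9, where Arc had 0.84, Junb and Nr4a1 0.80, Fos and Egr1 0.71, Egr2 0.70, Ier2 0.68, Egr4 0.52 and Npas4 0.45. The only negative pair was Fosb with Npas4 (r = -0.225, rho = 0.20). Without mice 12_1 and 2015, the farthest from the median of Fosb, that r was 0.26, and the r of Fosb with Nr4a1 went from 0.14 to 0.69. The low values of Fosb therefore rest in part on those mice, which were left out together. Its r without them was still 0.33 with Egr4 and 0.44 with Egr1. Leaving out the 2 farthest mice for each pair gave a median r of 0.511, and no pair that passed changed its sign. Within genotypes the median was 0.59 in WT mice and 0.42 in KO mice, and without the 8 libraries with low nuclear-retained RNAs it was 0.43.

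**Figure D4:**
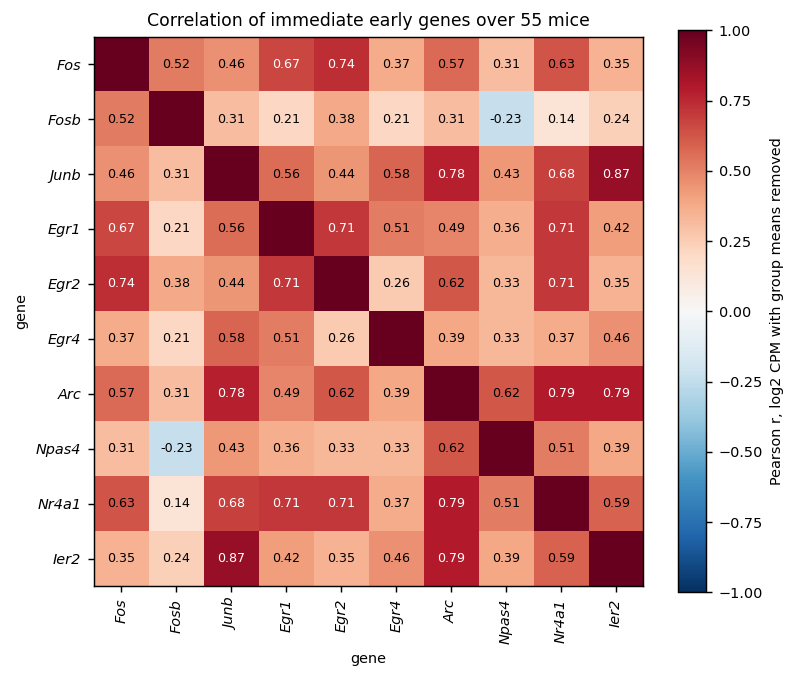
Pearson r between the 10 genes over 55 mice, from log2 CPM with group means removed (colour scale -1 to 1, values printed). Arc, Junb, Nr4a1 and Ier2 share the highest values, up to 0.867, and Fosb with Npas4 is the single negative pair.

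Outside the 10, genes whose level followed the mean of the standardized members closely over the 55 mice included Agfg2 (r = 0.72), Khdc4, Pheta1 and Rexo2 (each 0.70), Safb (0.68), Fam76a and Smg5 (each 0.67), and Cbr3 and Gtpbp3 (each 0.66). These were picked for the size of r from all genes tested and carry no p. The median r with that mean was 0.37 over the other rapid response genes, 0.22 over the upstream genes, 0.19 over the delayed response genes and 0.03 over all genes. It was -0.35 over the 9 mitochondrial mRNAs, which ranged from -0.41 to -0.29, 0.25 over the oligodendrocyte markers and 0.19 over the nuclear-retained RNAs. The values of 1 mouse share a library, its depth and its composition, whose part was not tested.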

How the data were processed

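RNA-seq libraries came from the dorsal hippocampus of 55 mice. Per the labels and the study's methods, the authors aligned paired reads to GRCm38 with STAR 2.7.9a and counted them per Ensembl gene with featureCounts 2.0.3. The deposited gene counts are whole numbers, raw and not normalized. Of counts from 1 to 10, 60.1% were even, the pattern of a count in which both mates of a pair add a read. The library kit does not mark strand, so reads of overlapping genes on opposite strands cannot be told apart. The authors also deposited log2 CPM values, which were used only as a check: they differed by at most 5.3e-15 from those computed here for the 10 genes. Transcript counts from Salmon 1.5.2 and 1 further column that matches no mouse were not used.

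Of 55774 lines, 287 were repeats of the other 55487 genes. After 5 ribosomal RNA genes were dropped, genes above 1 CPM in at least 10 libraries were kept (16168). Counts were TMM-scaled (edgeR 4.0.16) and fitted with limma 3.58.1 (voomWithQualityWeights, 1 mean per group, all 55 mice, R 4.3.3), with Benjamini-Hochberg FDR over all genes within each comparison and a threshold of 0.05. Fold changes come from this weighted fit and can differ from plain differences of means. DESeq2 1.42.0 and edgeR's quasi-likelihood test were alternatives, with other scalings, filters, covariates and subsets of mice, and with each mouse left out. Scripts were tested on simulated data. Correlations used Python 3.11.15 and numpy 2.4.6. Total counts per library set the depth, and p-values measure the spread between mice. The highest correlation between any pair of libraries was 0.9905, and no pair was taken as a duplicate.

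The 10 members and all lists were chosen with earlier results of these data known. All members are named; from the other response lists the text names up to 4 genes each with the smallest FDR between stages, those called in KO against WT over all mice, and the 10 genes most correlated with the members, of which 1 is not reported here.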

Additional observations from a re-analysis of the deposited data

Results flagged for a closer look

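Of 100 gene and group combinations examined, 6 had a mouse far from the rest of its group, where about 5 are given by chance. In KO estrus, mouse 12_1 stood at 76.6 CPM for Fosb with the next mouse at 10.6 CPM, and at 1.37 CPM for Npas4 with the next at 6.42 CPM. In KO proestrus, mouse 14_2 stood at 160 CPM for Arc with the next mouse at 269 CPM, and at 3.17 CPM for Ier2 with the next at 10.5 CPM. WT male 2015 was at 2.77 CPM for Npas4, below the next at 7.77 CPM, and KO male 2590 was at 1.78 CPM for Ier2, below the next at 6.2 CPM.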

How the results depend on the processing

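The count of members called between KO stages, 10, was 1 with edgeR, 1 with DESeq2, 2 without quality weights, 4 without the filter on low counts, 4 with age as a covariate, 0 with the number form as a covariate, and 0 with mice of 14 weeks or more only, with diestrus mice of 14 weeks or more only, and without the libraries with low nuclear-retained RNAs (chosen after seeing the data). Leaving out 1 mouse gave 6 to 10, fewest without KO diestrus mouse 532. Between KO stages and KO males, 6 became 1 with edgeR, DESeq2, no quality weights and no filter, 0 with age and 2 with the number form. It became 3 from 14 weeks, 2 with the older diestrus mice only, and 2 without the low nuclear libraries. With the number form, 0 members were called higher and 1 lower in KO estrus than in KO males (0.761% and 4.02% of all genes). Over the mean of the 4 stages, 0 were then called higher and 2 lower in KO females than in KO males (7.06% and 13.9% of all genes). Leaving out 1 mouse gave 3 to 7, fewest without KO estrus mouse 12_3. Between WT stages, 1 became 0 with edgeR, DESeq2, no quality weights, no filter and the number form, 4 with diestrus mice under 14 weeks only and 2 with WT mice alone; leaving out 1 mouse gave 0 to 5, most without WT diestrus mouse 2_2. Between WT stages and WT males, 0 became 4 with the number form, 2 with the younger diestrus mice only and 5 with mice from Cnih3 by B6 parents only, where a single comparison was possible; leaving out 1 mouse gave 0 to 5, most without WT male 2015. Between KO and WT, 0 became 1 with DESeq2. With edgeR or DESeq2 and without mouse 12_1 (chosen after seeing the data), the counts were 0 between WT stages, 0 between KO stages, 0 between KO stages and KO males, and 0 between KO and WT. The interaction count was 0 under each alternative run. Shares of all genes over the same sets of comparisons were not computed for the alternatives. In single comparisons these shares moved as well. Of all genes, 18% were called lower in KO diestrus than in KO males in the main fit. With age as a covariate 1.19% were, and with diestrus mice of 14 weeks or more only 0.0371%.

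Nr4a1 changed direction in KO diestrus against proestrus, to 0.04 with the older diestrus mice only and 0.04 without the low nuclear libraries. Those subsets differ only by 1 WT male. In KO diestrus against males it changed to 0.04 with age, 0.1 from 14 weeks, 0.1 with the older diestrus mice only and 0.11 without the low nuclear libraries. In KO diestrus against estrus, Junb changed to 0.13 and Ier2 to 0.04 with the number form. The median correlation, 0.46, was 0.59 in WT mice alone and 0.41 to 0.51 with 1 mouse left out. Of the 27 gene and comparison calls, 24 were kept with RLE scaling, 27 with mice that share the start of their number blocked together as a random effect, 20 with the younger diestrus mice only, 2 with edgeR and, of the 26 that had an adjusted p, 2 with DESeq2. The causes were not tested. No paired analysis was possible because the labels give no replicate numbers shared by groups; the starts of mouse numbers, some shared across groups and of unstated meaning, served only as the random block. Groups of 4 to 7 mice limit the precision, and 2 KO diestrus mice remain at 14 weeks or more.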

Other observations

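Individual mice sat at the same end of the range for several of the 10 genes. WT male 2015 was among the 5 lowest mice for 6 genes, and KO diestrus mice 2592, 532 and 644 were each among the 5 lowest for 4. KO metestrus mouse 6_1, KO estrus mouse 8_4 and KO male 2016 were each among the 5 highest for 5. In mouse 12_1 the summed delayed response genes were 3440 CPM, against 1730 to 1870 CPM in the other KO estrus mice, while Egr1 at 153 CPM, Egr2 at 5.15 CPM, Egr4 at 3.91 CPM and Arc at 145 CPM lay within the range of that group.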
